A study of Rattus norvegicus with 28 samples.

Results

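The immediate early genes Fos, Jun, Junb, Egr1 and Arc were followed by their gene identifiers through count tables of rat spinal cord and brain. Of the 5 genes, 4 had a row among the 30560 identifiers of each table used: Fos (ENSRNOG00000008015), Jun (ENSRNOG00000026293), Egr1 (ENSRNOG00000019422) and Arc (ENSRNOG00000043465). Junb (ENSRNOG00000042838) is not analysed here. The gene names were given with the identifiers that chose the genes, since the tables hold identifiers alone.

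The study compared mtCO3mut rats, whose neurons were made deficient in cytochrome c oxidase, complex IV of the respiratory chain, through edited mitochondrial DNA, with wild-type (WT) rats. The series text names the mutant line by COXⅢ and NeuN-Cre. Its labels give 4 mtCO3mut and 4 WT samples of spinal cord, the same numbers of brain, and 6 and 6 of an early-stage spinal cord. The cord table without the early-stage name is titled as lumbar and is called late lumbar cord here. The labels used here give no age, strain, sex or treatment, and do not say whether samples of a group came from separate animals. The p-values thus rest on the spread among these libraries, part of which may be technical.

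In the late cord and brain tables the column names hold a number with a mark in place of the genotype. The mark is the word jia in the plus columns and jian in the minus columns of cord. These words were read as pinyin for plus and minus, which no label states. The minus columns of brain hold a minus sign instead. The plus columns were taken to be mtCO3mut and the minus columns WT; no label or header says so, and the libraries are therefore named by their mark, plus-marked or minus-marked. Were the genotypes the other way round, every direction between the marks would turn. Libraries are numbered 1 to 4 within a mark, in the order of the numbers in the column names. The 12 columns of the early-stage table could not be tied to a genotype and were not used, so the genes are not given by stage. Total counts lay between 21008418 and 47597097 in late cord and between 33105800 and 82776333 in brain, where the totals of the plus-marked libraries were all above those of the minus-marked ones. No other identifier could be matched to a gene name. The edited gene, the markers of neurons, glia and other cells that would check the tissue labels, and the lists of related activity genes were therefore not examined.

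Immediate early genes are transcribed within minutes of a stimulus, without new protein synthesis, by transcription factors that are already present in the cell. In neurons, calcium entry and growth factor signals act on serum response factor (SRF) with its ternary complex partners and on cAMP response element binding protein (CREB). Fos and Jun encode subunits of the AP-1 transcription factor, and Egr1 encodes a zinc-finger transcription factor. Arc encodes a protein of excitatory neurons whose mRNA travels to dendrites and which takes part in removing AMPA receptors from synapses. Fos, Jun and Egr1 can also be induced in glia and vascular cells, while Arc is largely neuronal. In whole tissue, fewer cells of a type and less RNA per cell cannot be told apart.

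Of the 4 genes, 1 matched the RefSeq promoter table used here, Egr1. Its promoter is shown because Egr1 passed the test of a different effect of mark in the 2 tissues and because the elements known to induce immediate early genes can be looked for in it. The sequence is from RefSeq, build GRCr8, chr18:26736828-26737077, plus strand, the 250 bases before the annotated gene start, and its capitals mark the matches described below.
Egr1: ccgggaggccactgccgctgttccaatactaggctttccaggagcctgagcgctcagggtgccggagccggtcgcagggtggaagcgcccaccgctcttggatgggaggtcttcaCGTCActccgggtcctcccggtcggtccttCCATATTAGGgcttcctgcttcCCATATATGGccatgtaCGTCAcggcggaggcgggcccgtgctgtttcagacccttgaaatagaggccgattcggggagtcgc
It holds 2 matches to the CArG box, the element bound by SRF, CCATATTAGG at -105 to -96 and CCATATATGG at -83 to -74 from the gene start. It also holds 2 matches to the CREB half-site TGACG, both on the reverse strand, at -135 to -131 and at -66 to -62. Both strands were searched and no match overlapped another. Of 33469 rat promoters of the same length, 1.5% held a CArG box and 18.2% held TGACG. No match was found to the full CREB site TGACGTCA, the AP-1 site TGANTCA, the EGR site GCGNGGGCG or TATAAA, held by 1.59%, 6.34%, 4.29% and 12.9% of promoters. A match describes the letters and does not show that a factor binds there.

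In late lumbar cord the genes split in direction. Jun was 1.77-fold and Egr1 1.66-fold higher in plus-marked than in minus-marked libraries, and Arc was lower, at 0.433 of the minus-marked level. Fos was 2.20-fold higher on average but varied too much between libraries to pass the test. Thus 3 of the 4 genes passed an adjusted p of 0.05, 2 higher and 1 lower, where 13.5% of the 17134 genes tested passed in either direction, 6.83% higher and 6.66% lower. The median log2 fold change of the 4 genes was 0.78, against 0.00 over all genes tested. All levels are CPM, counts scaled to a common library total, corrected within a tissue by the trimmed mean of M-values (TMM), and tests are edgeR's quasi-likelihood test with Benjamini-Hochberg adjustment over all genes.

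**Figure D1:**
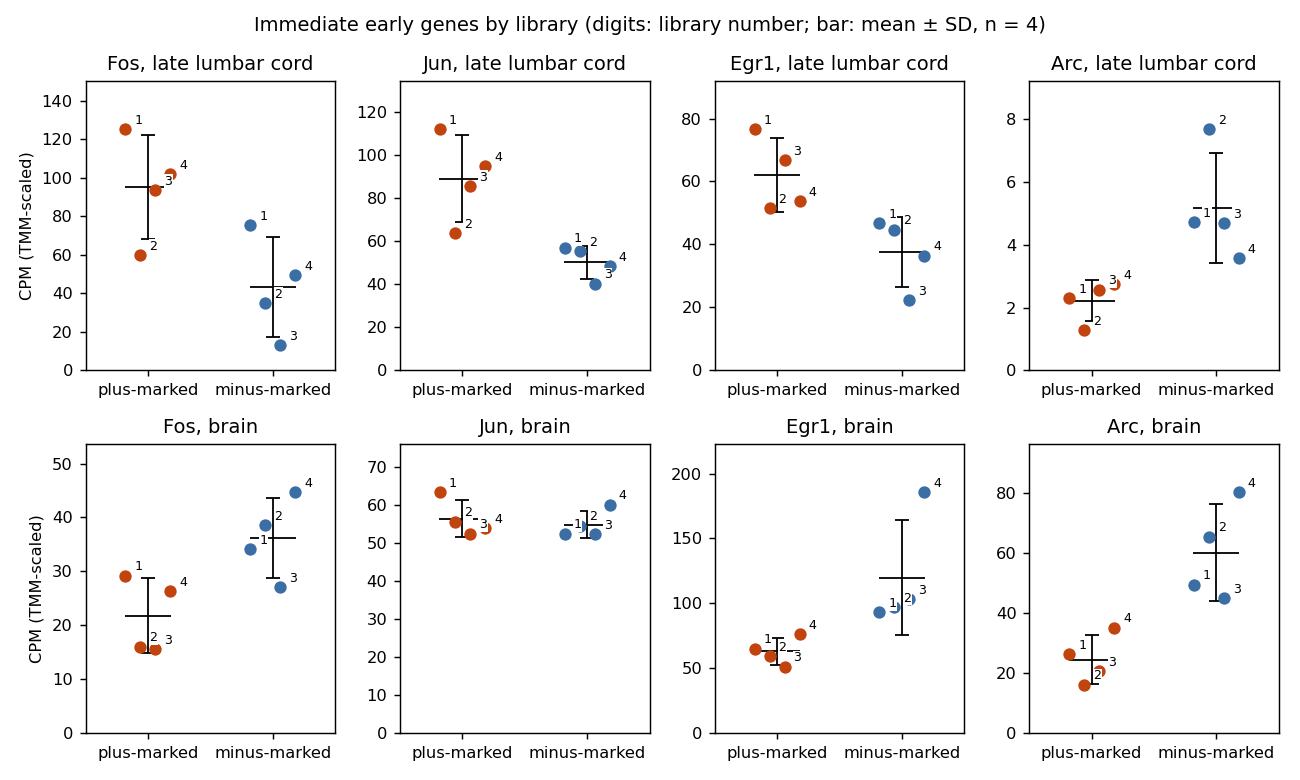
CPM (TMM-scaled within a tissue, linear axes from 0) of Fos, Jun, Egr1 and Arc in each library, plus-marked left and minus-marked right, late lumbar cord above and brain below. Digits are library numbers and bars are mean ± SD (n = 4). The marks part without overlap for Jun, Egr1 and Arc in cord and for Egr1 and Arc in brain.

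Jun encodes the AP-1 subunit that can pair with Fos or with itself. In late cord it was at 112, 63.7, 85.5 and 94.9 CPM in plus-marked libraries 1 to 4, against 57.0, 55.5, 40.2 and 48.5 CPM in minus-marked libraries 1 to 4. Every plus-marked library lay above every minus-marked one, with the narrowest gap between plus-marked library 2 and minus-marked library 1. The groups averaged 89.0 ± 20.2 and 50.3 ± 7.67 CPM (SD, n = 4 each), which is 0.83 on the log2 scale (edgeR adjusted p = 0.00744, SE 0.16). This call held without each of the 8 libraries in turn, with an edgeR adjusted p of 0.00135 to 0.0249. Across all genes tested, 20.2% had marks that did not overlap in late cord, 9.13% with the plus-marked libraries above and 11.1% with them below.

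Egr1, the zinc-finger factor, was at 76.6, 51.5, 66.8 and 53.8 CPM in plus-marked libraries 1 to 4, against 46.7, 44.6, 22.2 and 36.4 CPM in minus-marked libraries 1 to 4. The marks did not overlap, and minus-marked library 3 was far below the other 3 of its mark. Means were 62.2 ± 11.8 and 37.5 ± 11.1 CPM (SD, n = 4 each), which is 0.73 on the log2 scale (edgeR adjusted p = 0.0424, SE 0.21). The call was narrow: leaving out any one of the 4 plus-marked libraries, or minus-marked library 2, 3 or 4, took it over an adjusted p of 0.05, with log2 fold changes of 0.53 to 0.82 and edgeR adjusted p of 0.0527 to 0.106. It held without minus-marked library 1, with an edgeR adjusted p of 0.043.

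Fos, the AP-1 subunit most often used as a mark of recent activity, was at 125, 59.7, 93.4 and 102 CPM in plus-marked libraries 1 to 4, against 75.3, 34.9, 13.1 and 49.4 CPM in minus-marked libraries 1 to 4. The marks overlapped, because minus-marked library 1 was above plus-marked library 2. The minus-marked libraries differed by up to 5.75 times among themselves. Their coefficient of variation was 60.5%, above that of 96.7% of the genes tested, whose median in minus-marked cord was 12.8%. Group means were 95.02 ± 27.1 and 43.2 ± 26.1 CPM (SD, n = 4 each), and the log2 fold change was 1.14, with a 95% interval of 0.01 to 2.27 and an edgeR adjusted p of 0.163.

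Arc, the synaptic gene, was scarce in cord, with 26 to 100 counts in plus-marked and 140 to 366 counts in minus-marked libraries. It was at 2.29, 1.27, 2.57 and 2.75 CPM in plus-marked libraries 1 to 4, against 4.72, 7.69, 4.70 and 3.58 CPM in minus-marked libraries 1 to 4. All plus-marked libraries lay below all minus-marked ones. Means were 2.22 ± 0.662 and 5.17 ± 1.76 CPM (SD, n = 4 each), which is -1.21 on the log2 scale (edgeR adjusted p = 0.0187, SE 0.29). Without minus-marked library 2, the highest, the log2 fold change was -0.95 and the edgeR adjusted p was 0.0673, and the call held without each of the other 7.

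Fos, Jun and Egr1 ordered the cord libraries alike at both ends. Plus-marked library 1 was the highest and plus-marked library 2 the lowest of its mark in each of these genes. Among minus-marked libraries, library 1 was the highest and library 3 the lowest in each of them. Arc ordered the libraries differently, with plus-marked library 4 and minus-marked library 2 the highest of their marks. Plus-marked library 2, the lowest of its mark in all 4 genes, was also the shallowest cord library, at 21008418 counts; depth as a part of these differences was not tested.

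The column names also carry a code such as L24, whose meaning is not stated, and in cord it moved with the mark. Code L24 held plus-marked libraries 1, 3 and 4 and minus-marked library 3, the library lowest in Fos, Jun and Egr1. The other 4 codes held 1 library each. Within L24 the log2 fold changes were 1.27 for Jun, 1.56 for Egr1, 3.02 for Fos and -0.89 for Arc, all against that 1 minus-marked library. Among the libraries of the other codes, with plus-marked library 2 as the only one of its mark, they were 0.23 for Jun, 0.26 for Egr1, 0.15 for Fos and -2.08 for Arc. The signs were those of all 8 libraries in both subsets, while the sizes differed widely. Since each subset has a single library on one side, no call is read from either. With L24 against all other codes as a term in the fit of all 8 libraries, Jun had a log2 fold change of 0.77 and Arc of -1.41 (edgeR adjusted p of 0.0345 and 0.0257), Egr1 of 0.92 (edgeR adjusted p = 0.0512) and Fos of 1.58 (edgeR adjusted p = 0.24).

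**Figure D2:**
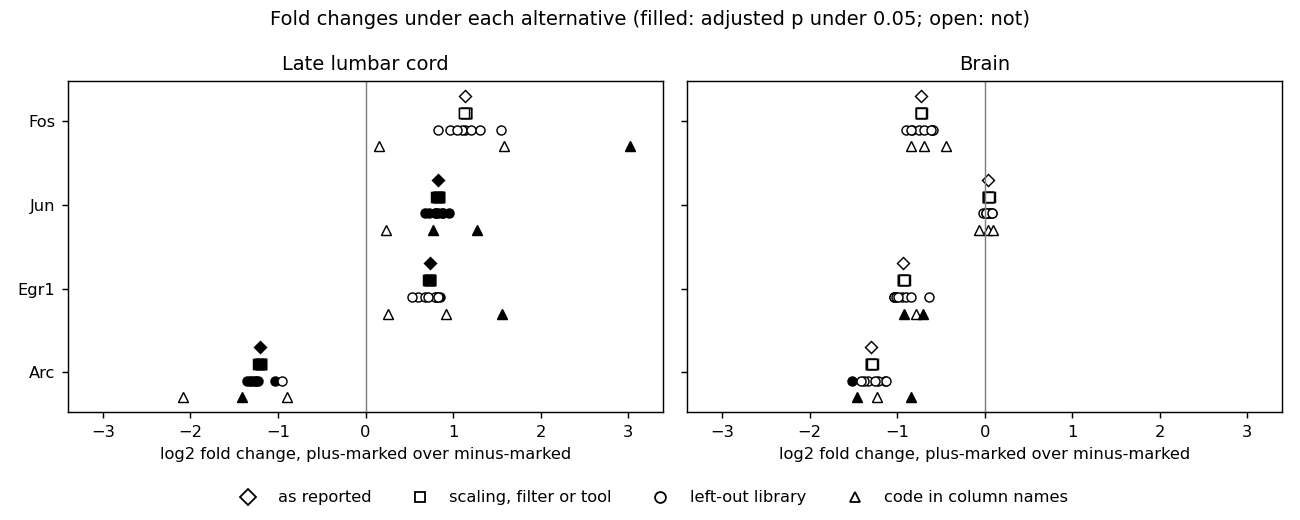
Log2 fold change of plus-marked over minus-marked libraries as reported and under each alternative, for late lumbar cord (left) and brain (right); filled symbols have an adjusted p under 0.05. Triangles take account of the column-name code, some with a single library of 1 mark, and in cord they run from 0.15 to 3.02 for Fos, while every symbol for Arc stays below 0 in both tissues.

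In brain none of the 4 genes passed the test, and the direction of the estimates differed from that in cord for Fos and Egr1. Arc was at 0.407, Egr1 at 0.525 and Fos at 0.603 of the minus-marked level, and Jun was at 1.03 times it. All 4 missed an adjusted p of 0.05, and 3 of them had an unadjusted edgeR p under 0.05 (0.0015 for Arc, 0.0037 for Egr1 and 0.0107 for Fos), as had 9.13% of the 16860 genes tested. Only 0.243% of all genes passed the adjusted threshold in brain. DESeq2 called 1 of the 4, Arc, at an adjusted p of 0.00511, among 210 genes called, where edgeR called 41. The absolute fold changes of Arc, Egr1 and Fos exceeded those of 99.5%, 98.4% and 97.0% of the genes tested.

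Arc was at 26.1, 16.016, 20.6 and 35.1 CPM in plus-marked brain libraries 1 to 4, against 49.5, 65.4, 45.0 and 80.3 CPM in minus-marked libraries 1 to 4. All plus-marked libraries lay below all minus-marked ones, a separation seen in 4.95% of the genes tested in brain and, in this direction, in 2.28%. The means were 24.5 ± 8.20 and 60.02 ± 16.1 CPM (SD, n = 4 each). The log2 fold change was -1.30, with a 95% interval of -1.93 to -0.66, but the edgeR adjusted p was 0.173. Without plus-marked library 4, the highest of its mark, the log2 fold change was -1.52 and the edgeR adjusted p was 0.032; without each of the other 7 libraries in turn it was 0.168 to 0.581.

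Egr1 was at 64.9, 59.2, 50.9 and 76.2 CPM in plus-marked brain libraries 1 to 4, against 92.9, 96.9, 103 and 186 CPM in minus-marked libraries 1 to 4. The marks again did not overlap, and minus-marked library 4 stood well above the other 3. The 10 most abundant brain genes took 36.07% of that library's counts, and 17.76% to 18.79% of those of minus-marked libraries 1 to 3. In plus-marked brain libraries they took 22.05% to 26.36%. Means were 62.8 ± 10.6 and 119.7 ± 44.3 CPM (SD, n = 4 each), a log2 fold change of -0.93 (95% interval -1.47 to -0.39, edgeR adjusted p = 0.262). With the 10 most abundant genes left out of library sizes, the log2 fold change was also -0.93 (edgeR adjusted p = 0.264). TMM factors were computed anew there and already trim extreme genes, so this setting could change little and nothing is concluded from it. Without minus-marked library 4 it was -0.64 and the edgeR adjusted p was 0.0703. That library was the highest of its mark in Fos, Jun and Arc too. Without it the log2 fold change was -1.13 for Arc, -0.61 for Fos and 0.08 for Jun.

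Fos was at 29.2, 16.004, 15.6 and 26.4 CPM in plus-marked brain libraries 1 to 4, against 34.2, 38.6, 27.1 and 44.7 CPM in minus-marked libraries 1 to 4. The marks overlapped in that plus-marked library 1 was above minus-marked library 3. The log2 fold change was -0.73 (95% interval -1.25 to -0.21, edgeR adjusted p = 0.398).

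Jun showed the smallest difference. It was at 63.4, 55.6, 52.4 and 53.9 CPM in plus-marked brain libraries 1 to 4, against 52.4, 54.5, 52.2 and 60.02 CPM in minus-marked libraries 1 to 4. The marks overlapped throughout. The log2 fold change was 0.04, with a 95% interval of -0.14 to 0.22 (edgeR adjusted p = 0.923), so a difference beyond 1.17-fold higher or below 0.907 of the minus-marked level lies outside the interval. Its coefficient of variation was 8.67% in plus-marked and 6.65% in minus-marked brain libraries, the lowest of the 4 genes in each group.

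The codes in the brain columns were shared by both marks. Within L3, with plus-marked libraries 1 to 3 and minus-marked libraries 1 and 2, the log2 fold changes were -1.46 for Arc and -0.70 for Egr1 (edgeR adjusted p of 0.0415 and 0.0299). Fos was at -0.85 and Jun at 0.10 there (edgeR adjusted p of 0.779 and 0.998). Over all genes, 29 were called within L3. Within L1, which held plus-marked library 4 with libraries 3 and 4 of the minus mark, the log2 fold changes were -0.84 for Arc, -0.93 for Egr1, -0.45 for Fos and -0.06 for Jun. No call is read from L1, since a single library stands on its plus-marked side. With the code as a term, Arc was at -1.23 and Egr1 at -0.78, neither past the threshold (edgeR adjusted p of 0.248 and 0.179).

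**Figure D3:**
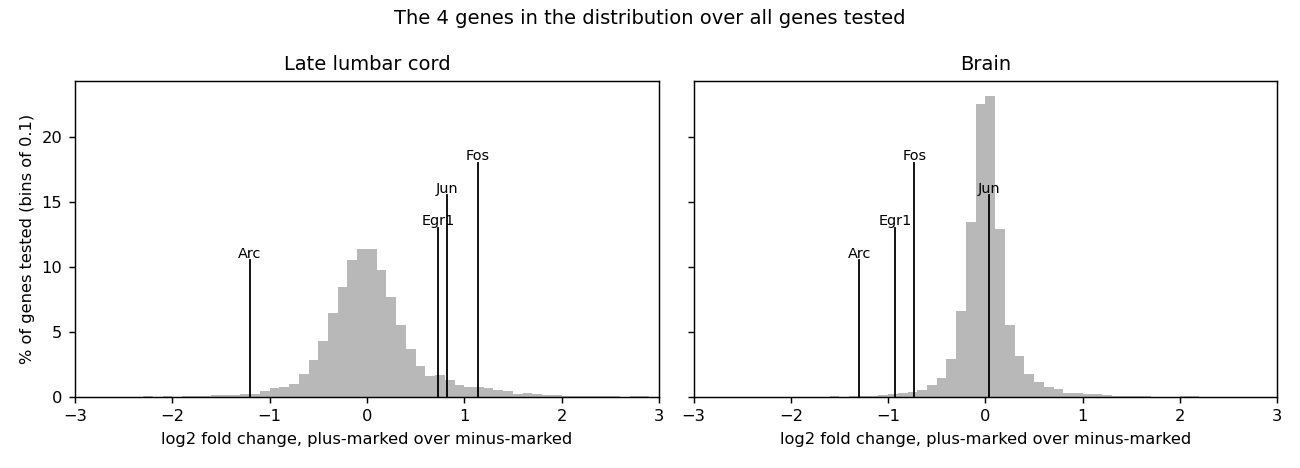
Share of all genes tested (y axis, percent) by log2 fold change of plus-marked over minus-marked libraries (x axis, bins of 0.1) in late lumbar cord and brain, with the 4 genes marked by lines whose heights only separate the labels. Arc lies in the lower tail in both tissues, at -1.21 and -1.30, while Fos and Egr1 lie on opposite sides of 0.

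Whether the difference between the marks itself differed between the tissues was tested as an interaction over all 16 libraries, treated as independent. The difference, cord minus brain, was 1.65 on the log2 scale for Egr1 (SE 0.35, edgeR adjusted p = 0.0223) and 0.78 for Jun (SE 0.19, edgeR adjusted p = 0.038). For Fos it was 1.86 (SE 0.60, 95% interval 0.57 to 3.15), with an edgeR adjusted p of 0.111. For Arc it was 0.09 (SE 0.40, 95% interval -0.75 to 0.93, edgeR adjusted p = 0.929), an interval that leaves room for a difference in either direction. So 2 of the 4 genes passed, both with the more positive effect in cord, where 2.79% of the 17823 genes tested passed, 1.03% with a more positive and 1.77% with a more negative effect in cord. Over all genes these were 183 and 315, and 207 and 224 with RLE scaling. The column names of both tissues hold the same numbers. With the number as a replicate block, 3 of the 4 genes passed, among 696 genes called. Fos was then at 2.09, Egr1 at 1.64 and Jun at 0.76 (edgeR adjusted p of 0.0252, 0.0283 and 0.0214). Arc was at 0.09 (edgeR adjusted p = 0.895). No label says whether a number marks an animal, so the edgeR call on Fos depends on that reading. DESeq2 called Fos without the block (adjusted p = 0.0334), among 1129 genes called, so the call depends on the tool as well.

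Both interaction calls could be lost by leaving out 1 library, that of Jun far more often than that of Egr1. Egr1 missed the threshold without plus-marked brain library 3 (edgeR adjusted p = 0.0519) and held without each of the other 15. Jun missed it without cord plus-marked library 1 or 3, cord minus-marked library 2, 3 or 4, brain plus-marked library 2, 3 or 4, or brain minus-marked library 1, 3 or 4, with differences of 0.64 to 0.82 and edgeR adjusted p of 0.0512 to 0.0811. With the code as a term within each tissue, Egr1 was at 1.70 and Jun at 0.72 (edgeR adjusted p of 0.0296 and 0.0885).

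**Figure D4:**
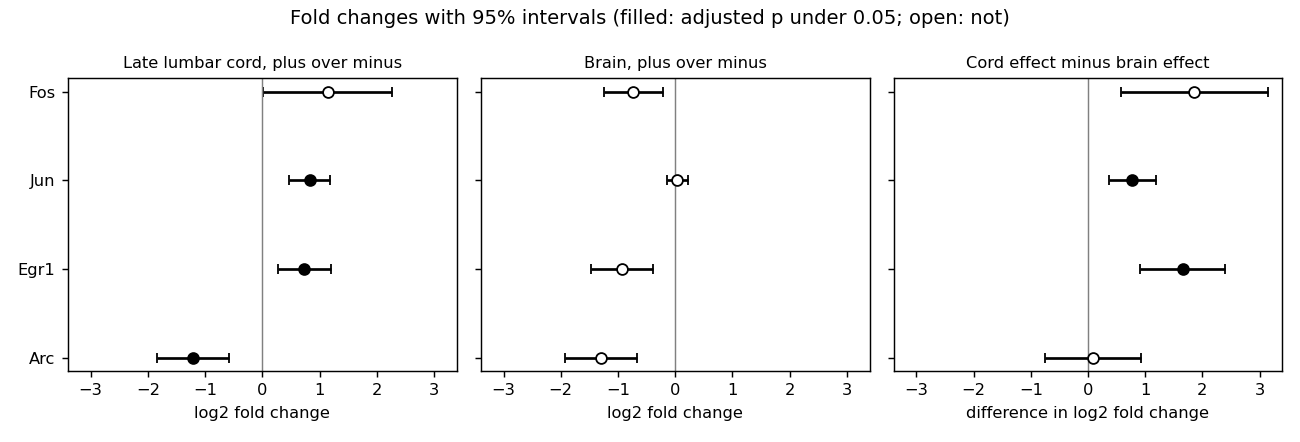
Log2 fold change of plus-marked over minus-marked libraries in late lumbar cord (left) and brain (middle), and the difference between both tissues (right), each with its 95% interval from the edgeR fit; filled points have an adjusted p under 0.05. Jun, Egr1 and Arc are filled in cord, none in brain, and Jun and Egr1 in the difference.

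The level of the genes by tissue was compared in the minus-marked libraries. The CPM given are scaled over all 16 libraries, while fold changes and tests come from a fit of the minus-marked libraries alone. The tissue and the table cannot be told apart here. Arc was 4.48 ± 1.52 CPM in cord and 69.5 ± 18.5 CPM in brain (SD, n = 4 each), which is -3.95 on the log2 scale (edgeR adjusted p = 8.19e-08, SE 0.26). Egr1 was 32.5 ± 9.80 CPM in cord and 138.6 ± 51.1 CPM in brain, which is -2.09 on the log2 scale (edgeR adjusted p = 0.000171, SE 0.30). Jun was 43.6 ± 6.89 CPM in cord and 63.5 ± 4.12 CPM in brain, which is -0.54 on the log2 scale (edgeR adjusted p = 0.000719, SE 0.11). These 3 genes were lower in cord, where 72% of the 16966 genes tested differed between the tissues, 36.9% higher and 35% lower in cord. Fos was 37.6 ± 22.9 CPM in cord and 41.8 ± 8.54 CPM in brain, with a log2 fold change of -0.16 (95% interval -1.32 to 1.01, edgeR adjusted p = 0.792).

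In plus-marked libraries the means of Fos and Jun were higher in cord than in brain. In minus-marked libraries Jun was lower in cord, while for Fos no order of the tissues passed the test. Fos was 81.8 ± 23.6 CPM in cord and 25.2 ± 8.08 CPM in brain, with 51.2 CPM as the lowest cord and 33.7 CPM as the highest brain value. Jun was 76.7 ± 17.6 CPM in cord and 65.2 ± 5.63 CPM in brain, with overlapping ranges. Egr1 was 53.6 ± 10.7 CPM in cord and 72.7 ± 12.2 CPM in brain, and Arc 1.91 ± 0.566 CPM in cord and 28.3 ± 9.45 CPM in brain (SD, n = 4 each). These plus-marked levels were not tested between tissues.

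Ratios of the counts of 2 genes within a library do not depend on scaling. They also carry gene length and counting, so they are compared between libraries and not read as relative abundance, and they were chosen after the values had been seen. Of 6 pairs of the 4 genes, the marks did not overlap for 3 in cord and 4 in brain, and 2 pairs are shown. No share over other pairs of genes was computed. The ratio of Jun to Arc was 49.0, 50.2, 33.2 and 34.5 in plus-marked cord libraries 1 to 4, against 12.1, 7.22, 8.56 and 13.6 in minus-marked ones. In brain it was 2.43, 3.47, 2.55 and 1.54 in plus-marked libraries 1 to 4, against 1.06, 0.834, 1.16 and 0.747 in minus-marked ones. The marks did not overlap in either tissue, and plus-marked cord library 2, the one of its mark outside code L24, had the highest ratio of all. In cord Jun and Arc each parted the marks without overlap and in opposite directions, so there the ratio in part restates those differences. In brain Jun hardly differed between the marks (log2 fold change 0.04), so there the ratio largely restates Arc.

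The ratio of Fos to Jun parted the marks in brain and overlapped between them in cord. Whether this ratio differed between the tissues was not tested. In brain it was 0.384 ± 0.106 in plus-marked and 0.656 ± 0.0994 in minus-marked libraries (SD, n = 4 each), without overlap. Since Jun hardly differed there, the ratio in brain largely restates Fos. In cord the ratio was 1.05 ± 0.0804 in plus-marked and 0.824 ± 0.437 in minus-marked libraries, and the minus-marked ones spread from 0.326 to 1.32.

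**Figure D5:**
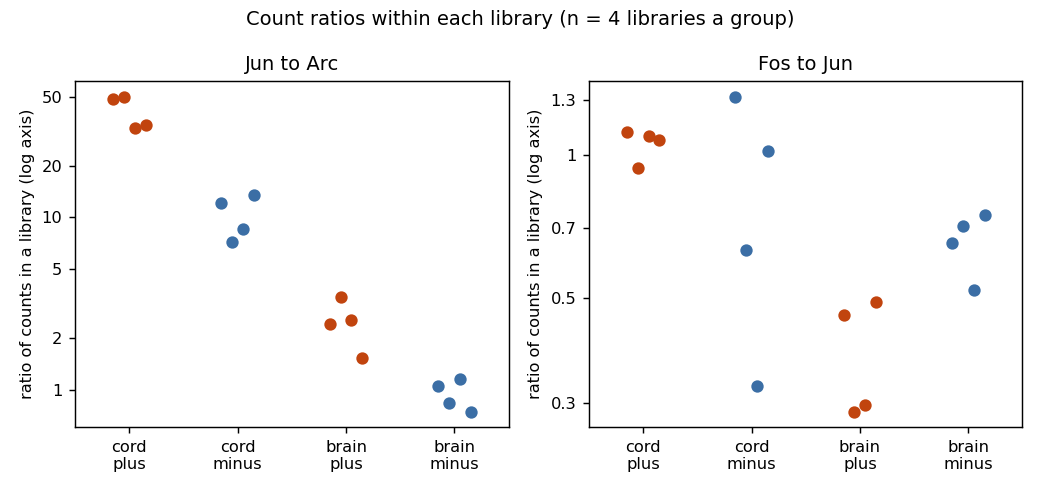
Ratio of the counts of Jun to Arc (left) and of Fos to Jun (right) in each library, on log axes, by tissue and mark; each point is 1 library (n = 4 a group). The Jun to Arc ratio is higher in every plus-marked library than in any minus-marked library of the same tissue, while the Fos to Jun ratio is lower in plus-marked brain and overlaps in cord.

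Genes with a like pattern were sought over all 16 libraries, each table centred on its own mean, by the Pearson correlation of log2 CPM with the mean standardised profile of the 4 genes, among 13921 genes. The 4 genes themselves correlated with that profile, of which each is a part, at 0.945 for Egr1, 0.913 for Fos, 0.72 for Jun and 0.314 for Arc. Arc thus shared least of the profile. The highest other gene was ENSRNOG00000068412 (r = 0.915, Spearman rho = 0.906), with a log2 fold change of 0.86 in late cord (edgeR adjusted p = 0.0106) and -0.59 in brain (edgeR adjusted p = 0.171). The next was ENSRNOG00000067725 (r = 0.897, Spearman rho = 0.874), at 0.80 in late cord and -0.29 in brain (edgeR adjusted p of 0.16 and 0.595). Libraries of a table differ in depth, code and mark, whose part in these correlations was not tested, so these values describe likeness only.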

How the data were processed

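Total RNA depleted of ribosomal RNA was made into strand-marked libraries and read as paired 150-base reads, per the labels' protocols. The authors deposited raw counts per gene. Per the submitters' processing notes, cutadapt, featureCounts, DESeq2 and build mRatBN7.2 were used; neither aligner nor strand setting is given in the sources used here, so reads shared with overlapping genes may be split in unknown ways. Of the deposited count columns, 16 were read by mark and 12 early-stage columns were not used. Column names gave group only.

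The test was that of edgeR 4.0.16 (R 4.3.3, with limma 3.58.1): filterByExpr, TMM scaling, robust quasi-likelihood F test on mark within a tissue, on mark by tissue for the interaction and on tissue for minus-marked libraries, two-sided, with an adjusted p threshold of 0.05. Standard errors and 95% intervals were derived from the F statistic, and a prior count of 2 entered log2 CPM. No 2 libraries of the same tissue and mark agreed within sampling noise, and other pairs were not compared. DESeq2 1.42.0, other scalings, filters, codes and left-out libraries were alternatives; those on codes, on library sizes without the 10 most abundant genes and on the tissue level were added after the data were seen. The fits by mark and the interaction fit were also run on simulated data with the same spread setting for every gene. These data do not have that property, and nothing is concluded here from that run. Genes were named by rule: the 4 members, and the 2 identifiers most like them, since no names were paired. The members, lists and tests were chosen with earlier results of these data known.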

Additional observations from a re-analysis of the deposited data

Results flagged for a closer look

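Egr1 in minus-marked brain library 4, at 186 CPM, lay far from the other 3 libraries of its group, with 0.890 of the group's range between it and the next value. It was the only one so marked among 16 combinations of a gene and a group of 4 libraries, and chance alone marks about 1 in 20 such groups. That library was also set apart beyond Egr1. The chi-square of raw counts per gene was 234.2 to 347.4 between it and the other libraries of its group. Among those others it was 18.99 to 55.46. For Jun, the effect of mark differed between cord and brain by 0.78 on the log2 scale, by the interaction term. That on Egr1 differed by 1.65. The tests of both are given with the report's results.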

How the results depend on the processing

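The direction in cord held under all 17 alternatives for each of the 4 genes, and in brain for Fos, Egr1 and Arc; the 3 other scalings kept every call of a gene. In cord, 2312 genes were called as reported, 267 within L24, 1089 within the other codes together and 543 when a log2 fold change of 1 or more in size was also required. With 1 library left out, 1175 to 2114 genes and 1 to 3 of the 4 were called. In brain, 41 genes were called, 210 by DESeq2, 74 with no filter on low counts, 71 within L1 and 19 with that fold change required; of the 4 genes, 1 was called by DESeq2 and 2 within L3. The counts within L24, the other codes and L1, with 0 of the 4 genes in the other codes and 2 in L1, rest on a single library on one side and say nothing of the genes. With 1 library left out, 8 to 60 genes and 0 to 1 of the 4 were called. The interaction had 498 genes, 1129 by DESeq2, and 215 to 647 with 1 library left out, with 0 to 2 of the 4 called, and 1 with the code as a term. Without a filter on low counts Egr1 in cord missed the threshold (edgeR adjusted p = 0.0765). Jun in brain turned to -0.0606 within L1 and ranged from -0.0212 to 0.0817 with 1 library left out. The difference for Arc between tissues turned to -0.0987 with the code as a term and ranged from -0.0879 to 0.3525 with 1 library left out. The difference for Fos between tissues passed by DESeq2 (adjusted p = 0.0334). The tissue difference of Fos in minus-marked libraries ranged from -0.56 to 0.15. The causes were not tested.

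No paired analysis was possible within a tissue because the marks share no number in the column names. Across tissues the same numbers recur, and 7 of 8 libraries correlated best with the same-numbered library of the other tissue. Correlations ran from -0.108 to 0.317, and 6 of 8 pairs exceeded 0.1. The same animals may thus have given both tissues, but no label says so and not every pair passed 0.1. The fits reported here therefore treat the libraries as independent, which may not hold. With number as a replicate block the interaction had 696 genes, and the 3 genes Fos, Jun and Egr1 passed, Fos at 2.09 (edgeR adjusted p = 0.0252). Early-stage and stage comparisons were not run, since those columns were tied to no genotype. Arc in cord rests on 26 to 366 counts a library.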
